A study of Homo sapiens with 12 samples.

Results

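The cytosolic ribosomal protein genes are the genes for the protein subunits of the ribosome that translates nuclear messages. They were taken by symbol alone: RPL or RPS followed by a number, with the endings A, L or X allowed, and in addition RPLP0, RPLP1, RPLP2 and RPSA. The rule found 81 of the 11529 genes of the table, 50 for the large subunit and 31 for the small subunit. Of these, 5 are paralogs of a canonical gene (RPL7L1, RPL22L1, RPL26L1, RPL39L and RPS27L), and 76 are not. The RNA came from 2 established cell lines of triple negative breast cancer, MDA-MB-468 and the mesenchymal line MDA-MB-231, each as 3 control samples, labelled wild type, and 3 SMARCA4 KO samples. SMARCA4 encodes an ATPase of the SWI/SNF chromatin remodelling complexes. The KO cells were pools selected with puromycin after lentiviral delivery of Cas9 and 1 guide RNA against SMARCA4, so that each is a mixture of edited cells and not a clone. The control samples carry the name Control in their descriptions besides the genotype wild type, and the study calls control the cells given a Cas9 vector with a nontargeting guide and WT the parental cells. No label says that the replicates came from separate cultures, and the p-values then measure only the spread between these samples.

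A ribosome joins a small subunit, which reads the message, to a large subunit, which forms the peptide bond, and each subunit needs its proteins in near equal numbers. Their messages are among the most abundant of a growing cell. Most begin with a C followed by a run of pyrimidines, the terminal oligopyrimidine (TOP) tract, through which mTOR and LARP1 set how well they are translated.

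The start sites of the members on which the results turn are shown because this shared feature can be read in them. The windows come from RefSeq (GRCh38.p14), run from 25 bases before to 20 bases after the annotated start on the sense strand, and carry in capitals the run of at least 7 C or T that begins within 10 bases of the start.
RPL13 (second of its annotated starts, chr16:89560657-89560701, plus strand): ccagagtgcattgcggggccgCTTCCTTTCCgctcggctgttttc
RPS19 (first of its starts, chr19:41860230-41860274, plus strand): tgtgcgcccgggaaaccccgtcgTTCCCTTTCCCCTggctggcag
RPS7 (chr2:3575235-3575279, plus strand): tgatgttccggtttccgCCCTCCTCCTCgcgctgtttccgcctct
RPL24 (chr3:101686699-101686743, minus strand): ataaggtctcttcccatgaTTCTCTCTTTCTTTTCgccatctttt
RPL35 (chr9:124861938-124861982, minus strand): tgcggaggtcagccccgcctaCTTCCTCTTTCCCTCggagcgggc
RPL22L1 (chr3:170870176-170870220, minus strand): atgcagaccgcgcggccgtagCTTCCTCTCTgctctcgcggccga
RPS27L (chr15:63157458-63157502, minus strand): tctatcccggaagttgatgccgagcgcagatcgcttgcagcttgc
RPL7L1 (chr6:42879591-42879635, plus strand): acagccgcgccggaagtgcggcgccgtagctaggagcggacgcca
The table of promoters held 66 of the 81 members, and 56 of them (84.8%) had such a run at 1 or more of their starts, against 19.1% of the 27305 genes with a promoter. RPS27L, RPL7L1 and RPL26L1 were among the 10 members without one, together with RPL3, RPL6, RPL12, RPL17, RPL32, RPS4X and RPS29. Within the 300 bases around the start, and on either strand, CCGGAA, the core of an ETS factor site, occurred in 57.6% of the members and 20.1% of all genes. AAGATGGC, the core of a YY1 site, occurred in 10.6% and 3.5%, and the TATA box TATAAA in 9.1% and 13.99%. These matches describe the letters only.

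The table holds log2(FPKM + 1) values, where FPKM counts fragments relative to transcript length and to all mapped fragments, and all fold changes are on this scale. It gives no read counts, and the depth of the libraries is therefore unknown. Each sample had 11293 to 11362 genes above 0. SMARCA4, the targeted gene, measured 6.61, 6.62 and 6.68 in the MDA-MB-468 controls and 5.35, 5.48 and 5.61 in the KO samples, and 6.10, 6.18 and 6.09 against 4.46, 4.64 and 4.56 in MDA-MB-231 cells, which is 44.3% and 32.7% of the control FPKM. Of 18 cell type markers 10 were in the table: EPCAM (8.11 to 8.27) and KRT5 (8.41 to 9.44) were high in MDA-MB-468 cells and VIM (9.87 to 10.45) in MDA-MB-231 cells, where KRT5 was at most 0.31. Of these 10, KRT8 was higher after KO in MDA-MB-468 cells (0.50, limma adjusted p of 0.032), and in MDA-MB-231 cells VIM was lower (-0.39, limma adjusted p of 0.031) and CDH1 (0.54, limma adjusted p of 0.044) and ERBB2 (0.22, limma adjusted p of 0.041) higher. In MDA-MB-468 cells EPCAM (-0.09) and CDH1 (-0.22) were below 0 after KO, and KRT18, KRT19, KRT5 and EGFR above it (0.07 to 0.35), none of them called. Among the 7 epithelial markers KRT8, KRT18 and KRT19 had the highest values in both lines and weigh most in their sum. The summed FPKM of the 7 epithelial markers was 5888 to 6114 in controls and 6726 to 7388 in KO samples of MDA-MB-468, and 794 to 1181 and 1188 to 1306 in those of MDA-MB-231. That of VIM and ZEB1 was 2.12 to 3.70 and 3.67 to 4.21 in the first line and 1232 to 1407 and 949 to 1053 in the second. Their part in the members' changes was not tested. The 8 others, among them the defining markers of leukocytes, endothelium and fibroblasts (PTPRC, PECAM1 and COL1A1), were not analysed here. Pseudogene rows named after a member numbered 18 and together held at most 0.291% of the members' FPKM in a sample, but reads that members share with pseudogenes or paralogs may have been divided by the quantification.

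Members were expressed at high and unequal levels. RPS18 (2460 FPKM on average over the 12 samples), RPS27 (2153), RPS24 (1990), RPL10 (1896) and RPS19 (1879), 4 proteins of the small subunit and 1 of the large, had the highest mean log2 values, between 10.81 and 11.26. Their neighbours in this order differed by less than 0.19 on the log2 scale. The 5 lowest were the 5 paralogs: RPL39L (33.3 FPKM), RPS27L (38.6), RPL22L1 (54.5), RPL26L1 (72.7) and RPL7L1 (162). The next member above them was RPL22, at a mean log2 value of 8.23 against 7.24 for RPL7L1. FPKM is set per length, but reads shared with pseudogenes or paralogs limit how far these levels can be compared between genes.

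The first measure was the share of all FPKM in the table that the 81 members hold. In MDA-MB-468 controls this share was 9.62%, 10.3% and 10.5%, and in the KO samples 11.3%, 11.6% and 11.3%. In MDA-MB-231 controls it was 12.6%, 12.5% and 13.7%, and in the KO samples 11.8%, 11.8% and 12.6%. All 3 KO samples of MDA-MB-468 therefore lay above all their controls, whereas in MDA-MB-231 cells the groups overlapped, with 1 KO sample between the 2 lower controls. The means were 10.1% ± 0.438 and 11.4% ± 0.160 in MDA-MB-468 cells and 12.96% ± 0.640 and 12.1% ± 0.463 in MDA-MB-231 cells (control and KO, SD, n = 3). The KO difference was thus 1.29 percentage points for MDA-MB-468 and -0.878 for the MDA-MB-231 line. Large subunit members went from 5.59% to 6.28% and small subunit members from 4.52% to 5.12% in MDA-MB-468 cells, and from 7.70% to 7.24% and from 5.26% to 4.84% in MDA-MB-231 cells. In RNA of whole cultures, a lower level in every cell and fewer cells with a high level cannot be told apart.

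Members deviated together within a sample, most in 2 of the controls. In MDA-MB-468 control 1, 79 of the 81 members lay below their group's mean, by 0.09 on average on the log2 scale, and in MDA-MB-231 control 3, 79 lay above it, by 0.11. In the other 10 samples the mean deviation was at most 0.06 in size, but it was also of mostly 1 sign in several. MDA-MB-468 control 3 had 76 members above its group's mean and KO 3 had 74 below, and in MDA-MB-231 cells control 2 had 73 and control 1 had 72 below, while KO 3 had 72 above. Deviations cancel within a group, so that the other controls of a line must deviate on average against the 1 that stood apart. Their signs are thus not separate observations. Without the 2 controls that stood apart by the size of this deviation, the difference in the share was 1.05 percentage points for MDA-MB-468 and -0.509 for the MDA-MB-231 line. Both controls deviated in the direction that enlarges the KO differences, so that smaller differences without them followed from the choice. The 15 mitochondrially encoded genes of the table moved the other way. Their share was 17.2% to 18.7% in MDA-MB-468 controls and 14.7% to 16.2% in the KO samples, and 15.1% to 17.0% in MDA-MB-231 controls and 17.1% to 19.0% in the KO samples. With these genes left out of the total, the members' share was 12.3% ± 0.434 in control and 13.5% ± 0.216 in KO samples of MDA-MB-468 cells, and 15.5% ± 0.559 and 14.7% ± 0.458 in those of MDA-MB-231 cells (SD, n = 3). The part of the mitochondrially encoded genes in the members' log2 changes was not tested.

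**Figure D1:**
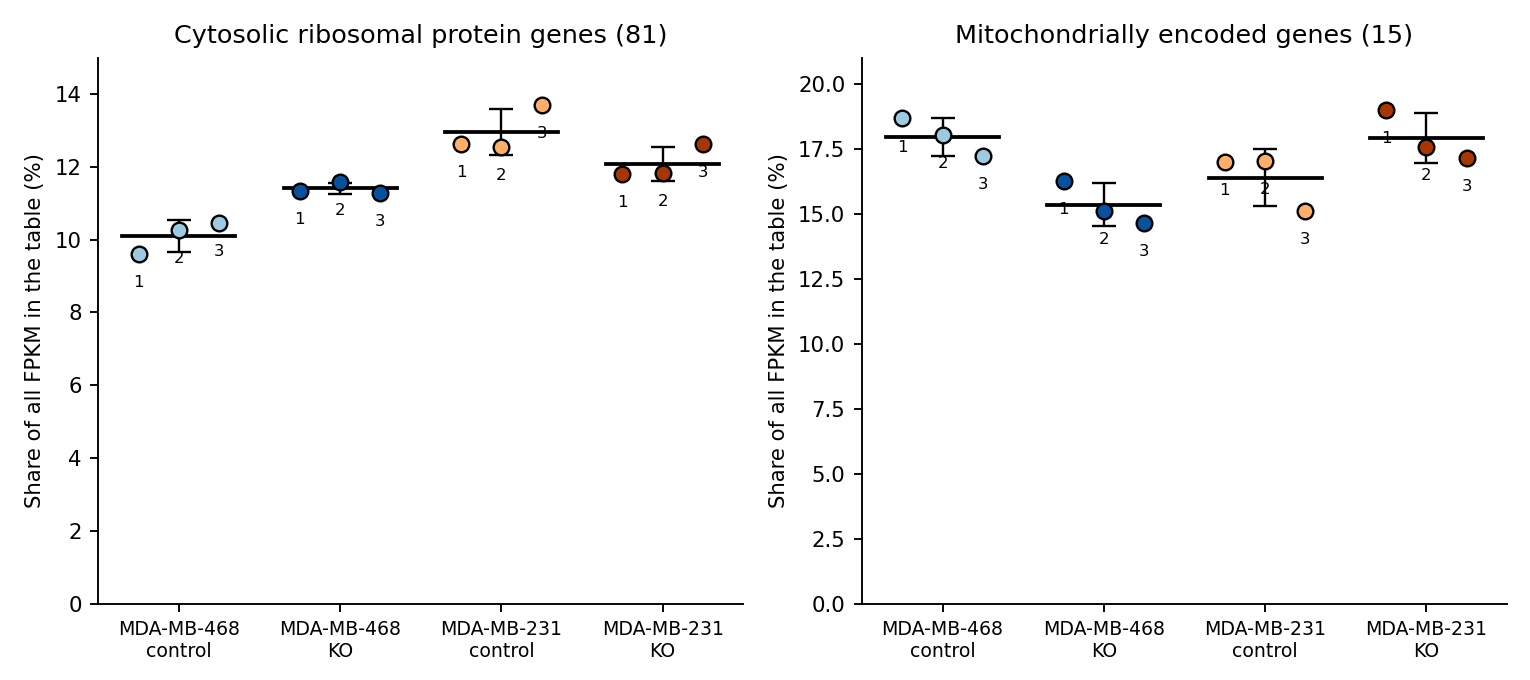
Share of all FPKM in the table (%, y axis) held by the 81 cytosolic ribosomal protein genes (left) and by the 15 mitochondrially encoded genes (right) in each sample. Points are samples numbered by replicate, bars the mean and SD of 3; the ribosomal protein share was 11.3% to 11.6% in MDA-MB-468 KO samples, above the 9.62% to 10.5% of the controls.

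The comparison of KO with control in MDA-MB-468 cells asked how these genes stood after loss of SMARCA4. All 81 members had a higher mean in KO than in control samples, against 53.6% of all genes, with a median log2 fold change of 0.18 against 0.02 over all genes. In 59 members every KO sample was above every control, against 17.5% of all genes. Only 1 member, RPL13, passed the adjusted p threshold of 0.05 in limma, which is 1.23% of the members against 2.21% of all genes called higher. At an unadjusted p under 0.05 there were 50 higher and 0 lower, against 14.1% of all genes higher. These 50 became 23 without KO 2 and 33 without KO 1, 23 under quantile normalization and 27 with the p number of the sample descriptions as a block. For that block, the control and the KO sample whose p number had no match were put together. The members' changes were thus small and of 1 direction, and a share of called members near the background is not a result about them.

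RPL13, a protein of the large subunit, lies on chromosome 16 from 89627085 to 89630950 (GRCh37, plus strand). It measured 10.69, 10.78 and 10.84 in the controls and 11.18, 11.13 and 11.08 in the KO samples, without overlap. The log2 fold change was 0.36 ± 0.06 (SE), a 1.28-fold higher mean FPKM, with an adjusted p of 0.038 in limma. The call was not kept with the replicate number as a block (limma adjusted p of 0.082), nor without any 1 of the 6 samples, where the limma adjusted p was between 0.054 and 0.143. Over all genes, the 432 calls of the main fit became 285 with that block and 0 to 725 with 1 sample left out. In most of these settings the loss was thus not particular to RPL13.

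RPS19, RPS15 and RPS16 of the small subunit were also among the members with the highest values. RPS19, a protein needed to process the small subunit's RNA and mutated in Diamond-Blackfan anaemia, measured 10.73, 10.89 and 10.88 in controls and 11.20, 11.21 and 11.06 in KO samples. Its log2 fold change of 0.32 ± 0.07 (SE) did not pass (limma adjusted p of 0.064). RPS15 and RPS16 had log2 fold changes of 0.27 and 0.27, and limma adjusted p-values of 0.101 and 0.075. At the other end stood RPL7L1 (0.03), RPS27L (0.06), RPL22 (0.07), RPL41 (0.07) and RPL3 (0.09), whose limma adjusted p-values were between 0.356 and 0.709. RPL7L1 measured 6.63, 6.66 and 6.72 in controls and 6.65, 6.72 and 6.74 in KO samples, groups that overlap. Of these 5 genes, RPL7L1, RPS27L and RPL3 had no pyrimidine run at the starts shown or searched above, and RPL22 and RPL41 had one. Elsewhere among the members without a run, RPL26L1 had 0.24, RPL12 and RPL32 0.20, RPL17 0.18 and RPL6 0.12. Any relation between the run and the change was not tested.

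The median log2 fold change was 0.18 for the 50 large subunit members and 0.18 for the 31 small subunit members. The range over all members was 0.03 to 0.36. Under quantile normalization 74 of the 81 members were above 0 and the median was 0.09, and with each sample centred on the members' own mean 38 were above 0 and 43 below. On that centred scale 0 members were called and 1 had an unadjusted p under 0.05 in limma.

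The same comparison in MDA-MB-231 cells gave mostly lower values. In 69 members the mean was lower in KO than in control samples, against 51.5% of all genes, and the median log2 fold change was -0.13 against -0.01 over all genes. In 32 members every KO sample was below every control, against 19.4% of all genes. In limma 2 members were called lower, RPL22L1 and RPL24, which is 2.47% of the members against 5.48% of all genes, and 0 were called higher. At an unadjusted p under 0.05 there were 17 lower and 0 higher, against 16.4% of all genes lower. These 17 became 5 without KO 2, 7 without KO 1 and 9 without control 3, and 11 with equal 75th percentiles.

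RPL22L1, the paralog of RPL22, lies on chromosome 3 from 170582664 to 170587997 (GRCh37, minus strand). It measured 6.28, 6.11 and 6.25 in the controls and 5.78, 5.73 and 5.97 in the KO samples, with no overlap. It fell by 0.38 ± 0.08 (SE) on the log2 scale, to 0.764 of the control FPKM (limma adjusted p of 0.044). RPL24, a protein at the face of the large subunit that meets the small one, lies on the same chromosome from 101399935 to 101405577 (minus strand). It measured 10.02, 10.01 and 10.12 in the controls and 9.79, 9.76 and 9.82 in the KO samples, again without overlap. It fell by 0.26 ± 0.05 (SE) (limma adjusted p of 0.034). Neither call was kept with the replicate block (limma adjusted p of 0.091 and 0.099), although the replicate numbers did not pair in this line. With that block 0 of all genes were called, against 1248 in the main fit and 103 to 481 without 1 sample. The block fit thus says nothing particular about these 2 genes. Without any 1 sample the limma adjusted p was between 0.047 and 0.132 for RPL22L1 and between 0.068 and 0.121 for RPL24. Without control 3, which stood apart, they were 0.10 and 0.070.

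Next in order came RPS7, RPL35 and RPL9, with log2 fold changes of -0.29, -0.27 and -0.24 that did not pass (limma adjusted p of 0.054, 0.065 and 0.169). RPS7, a small subunit protein that also binds MDM2, measured 9.80, 9.69 and 9.77 in controls and 9.47, 9.34 and 9.56 in KO samples, which did not overlap. The members with the highest values were RPLP2 (0.15), RPL37 (0.13), RPS25 (0.08), RPL39 (0.08) and RPL23A (0.05), with limma adjusted p-values from 0.272 to 0.638. RPLP2 is a protein of the ribosomal stalk, which recruits the translation factors, and measured 9.34, 9.30 and 9.48 in controls against 9.38, 9.62 and 9.57 in KO samples. Its stalk partners RPLP0 and RPLP1 had values of -0.09 and -0.14 (limma adjusted p of 0.554 and 0.267), and RPSA, a small subunit protein also known as the laminin receptor, had -0.22 (limma adjusted p of 0.203).

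**Figure D2:**
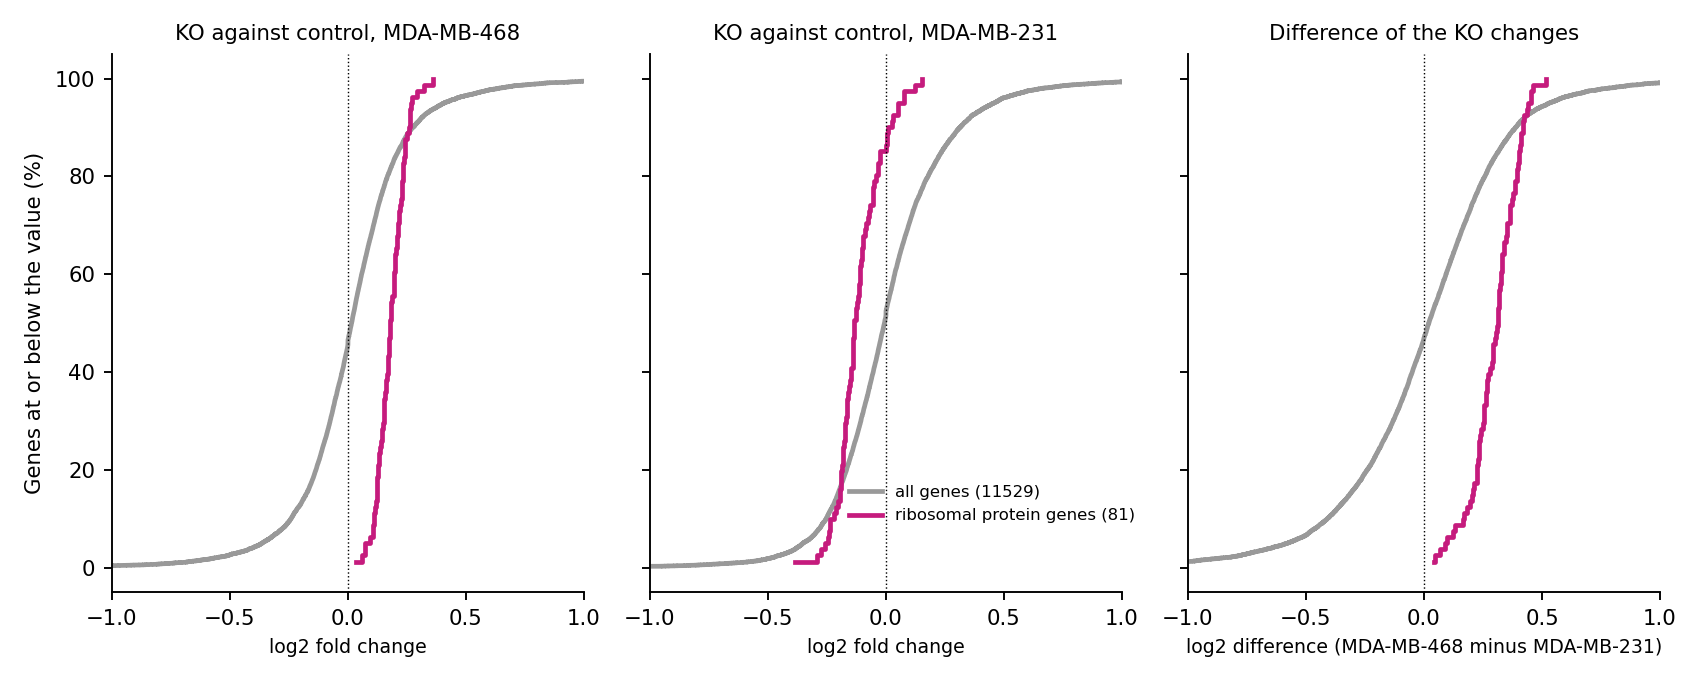
Cumulative share of genes (%, y axis) at or below a log2 fold change (x axis, cut at -1 and 1) for the 81 cytosolic ribosomal protein genes and all 11529 genes, in both cell lines and for the difference between them. The members' curve is steep and lies to the right of 0 in MDA-MB-468 cells (median 0.18), mostly to its left in MDA-MB-231 cells (median -0.13), and to its right for the difference (median 0.31).

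To compare the lines, the KO change of MDA-MB-231 cells was subtracted from that of MDA-MB-468 cells in 1 limma fit of the 12 samples. The difference was above 0 in all 81 members, against 53.1% of all genes, with a median of 0.31 against 0.02 over all genes. It passed the adjusted threshold in 23 members (28.4%), against 7.91% of all genes, 14 for the large and 9 for the small subunit, and 0 members passed in the other direction, against 6.83% of all genes. At an unadjusted p under 0.05 there were 58 members higher, against 17.3% of all genes. The count rested on the libraries and the scaling: 12 members passed with the replicate number as a block, 10 with equal 75th percentiles, 3 after quantile normalization and 3 to 20 when 1 sample was left out. Over all genes 1463, 1612, 1522 and 924 to 1897 passed in these settings, against 1699 in the main fit. Without the 2 controls that stood apart 0 members passed and 30 had an unadjusted p under 0.05, while 76 remained above 0 with a median of 0.21. The calls over all genes then fell to 785. Both controls were chosen by the members' own deviation, which enlarges this difference, so that a smaller difference followed from the choice.

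RPL22L1 had the largest difference, 0.52 ± 0.12 (SE, limma adjusted p of 0.016), and was the only member past a difference of 0.5. In MDA-MB-468 cells it measured 5.39, 5.48 and 5.43 in controls and 5.68, 5.58 and 5.46 in KO samples, where the groups overlapped. The limma adjusted p of its difference stayed between 0.010 and 0.043 when any 1 sample was left out, and was 0.069 without the 2 controls. RPS7 came next, with 0.46 ± 0.11 (SE, limma adjusted p of 0.019), from 10.21, 10.37 and 10.39 in MDA-MB-468 controls to 10.49, 10.57 and 10.42 in the KO samples, above their controls.

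The small subunit proteins RPS26 and RPS9 had differences of 0.45 and 0.45, RPS19 and RPS15 of 0.42 and 0.42. RPL18, RPL28, RPL13 and RPL36 of the large subunit had 0.44, 0.44, 0.41 and 0.41. Over these 8 genes the limma adjusted p was between 0.017 and 0.046. RPS26, which sits at the exit of the messenger RNA channel, measured 8.23, 8.38 and 8.35 in MDA-MB-468 controls and 8.55, 8.51 and 8.52 in KO samples, and 8.56, 8.48 and 8.66 against 8.20, 8.30 and 8.48 in MDA-MB-231 cells. Its KO samples were thus above the controls in the first line and no higher than the lowest control in the second. At the low end, RPLP2 (0.04), RPS25 (0.05), RPL22 (0.07), RPL37 (0.09) and RPL39 (0.10) had limma adjusted p-values from 0.589 to 0.838. With every sample centred on the members' mean, 0 members passed and 3 had an unadjusted p under 0.05, with 44 above 0 and 37 below.

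**Figure D3:**
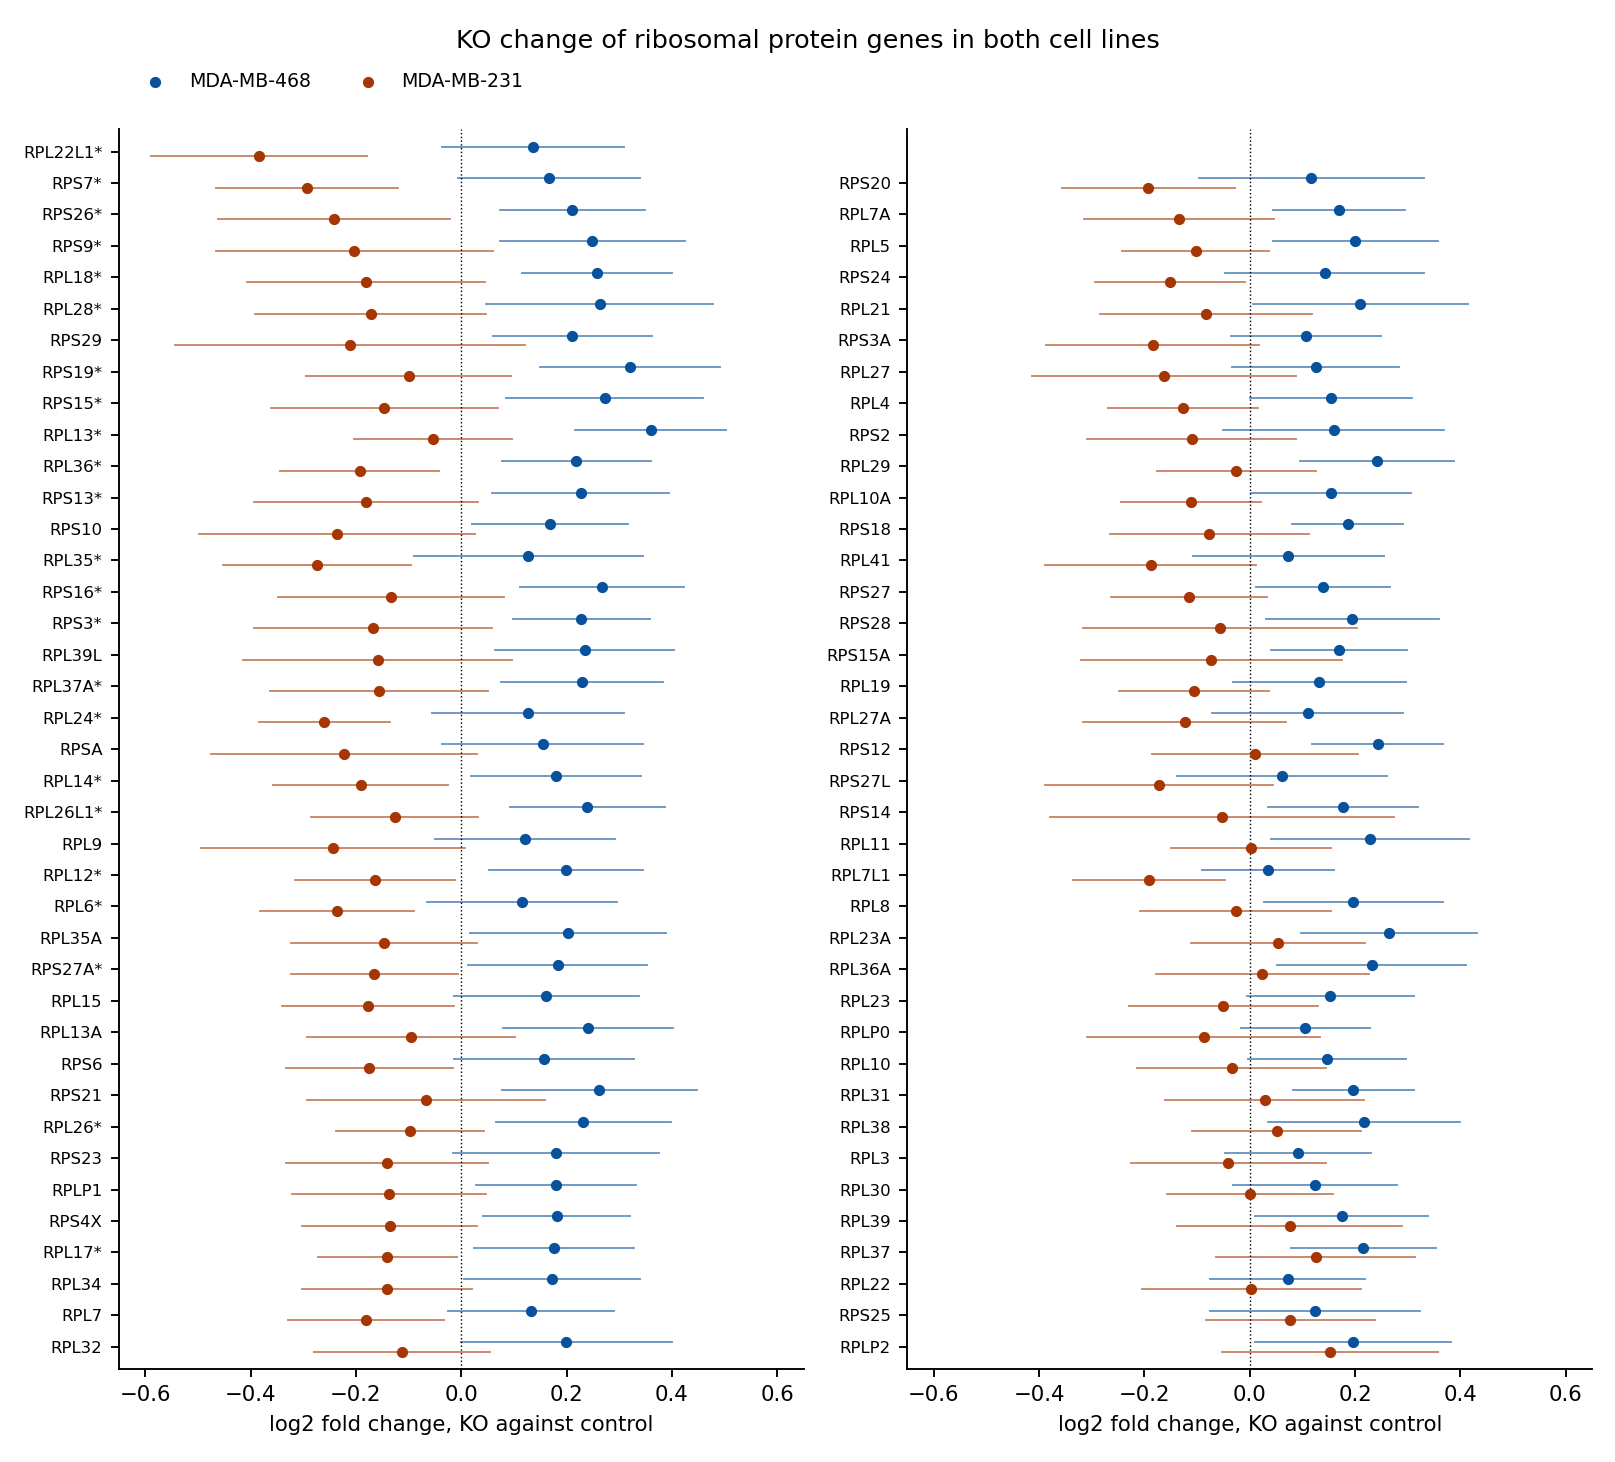
log2 fold change of KO against control (x axis) with its 95% confidence interval from limma for 77 of the 81 members, in MDA-MB-468 cells (blue) and MDA-MB-231 cells (brown), in order of the difference between the lines. Every blue point lies to the right of its brown point, and an asterisk marks the 23 members whose difference passed the adjusted p threshold.

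The cell lines also differed before any KO, and this comparison used the 6 control samples. The median log2 difference of the members, control MDA-MB-468 minus control MDA-MB-231, was -0.40, against 0.01 over all genes. In limma 52 members were lower in MDA-MB-468 cells, against 41.5% of all genes, and 7 were higher, against 42.4%. With an absolute log2 difference over 0.5 besides, 35 members (43.2%) were lower, against 31.4% of all genes, and 3 (3.70%) were higher, against 32.7%. The large subunit had 37 of 50 members lower and 4 higher, with a median of -0.51, and the small subunit 15 of 31 lower and 3 higher, with a median of -0.20. Without the 2 controls that stood apart 48 members were lower and 11 higher, with a median of -0.31. Here too a smaller difference followed from the choice of these controls.

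RPL34, a small basic protein of the large subunit, was the member farthest below its MDA-MB-231 level in MDA-MB-468 cells. It measured 8.61, 8.67 and 8.75 there and 10.01, 10.07 and 10.23 in MDA-MB-231 controls. The log2 difference was -1.43 ± 0.08 (SE, limma adjusted p of 1.2e-06), a 2.70-fold higher mean FPKM in MDA-MB-231 cells. RPL35, which sits beside the exit of the peptide tunnel, was 2.48-fold higher in MDA-MB-231 cells, at 11.21, 11.28 and 11.38 against 9.81, 10.03 and 10.08. RPL7L1, RPS27L, RPS15, RPL7A, RPS28, RPL36, RPL23A and RPL14 followed, with log2 differences from -1.22 to -1.02 and limma adjusted p-values of at most 2.4e-05. Called members were named here only where the groups do not overlap. All 3 MDA-MB-468 controls were therefore below all MDA-MB-231 controls in each of these 10 genes by selection. This held for 56 of the 81 members, against 4873 of all 11529 genes.

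RPL10, a protein of the large subunit that takes part in its last assembly step and is encoded on the X chromosome (GRCh37, 153618315 to 153637504, plus strand), was the opposite case. It measured 11.19, 11.18 and 11.30 in MDA-MB-468 controls and 10.23, 10.30 and 10.46 in MDA-MB-231 controls, a difference of 0.89 ± 0.08 (SE, limma adjusted p of 2.2e-05) and 1.85-fold in FPKM. RPS12 was higher by 0.73 ± 0.09 and RPS7 by 0.57 ± 0.08 (SE, limma adjusted p of 1.1e-04 and 1.9e-04), without overlap of the groups, as the rule of naming requires. RPL13 and RPL26L1 were higher by 0.40 and 0.24, with limma adjusted p-values of 0.0017 and 0.015. Of the stalk proteins, RPLP0 was lower by 0.87, RPLP2 by 0.67 and RPLP1 by 0.34 in MDA-MB-468 cells (limma adjusted p of at most 0.0073), and RPSA by 0.56 (limma adjusted p of 0.0013). On the scale centred on the members' mean, 28 members were called higher and 29 lower. On that scale 9214 of all 11529 genes were called, so that these counts do not stand out from the background. The members' differences between the lines were thus not all of 1 size.

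**Figure D4:**
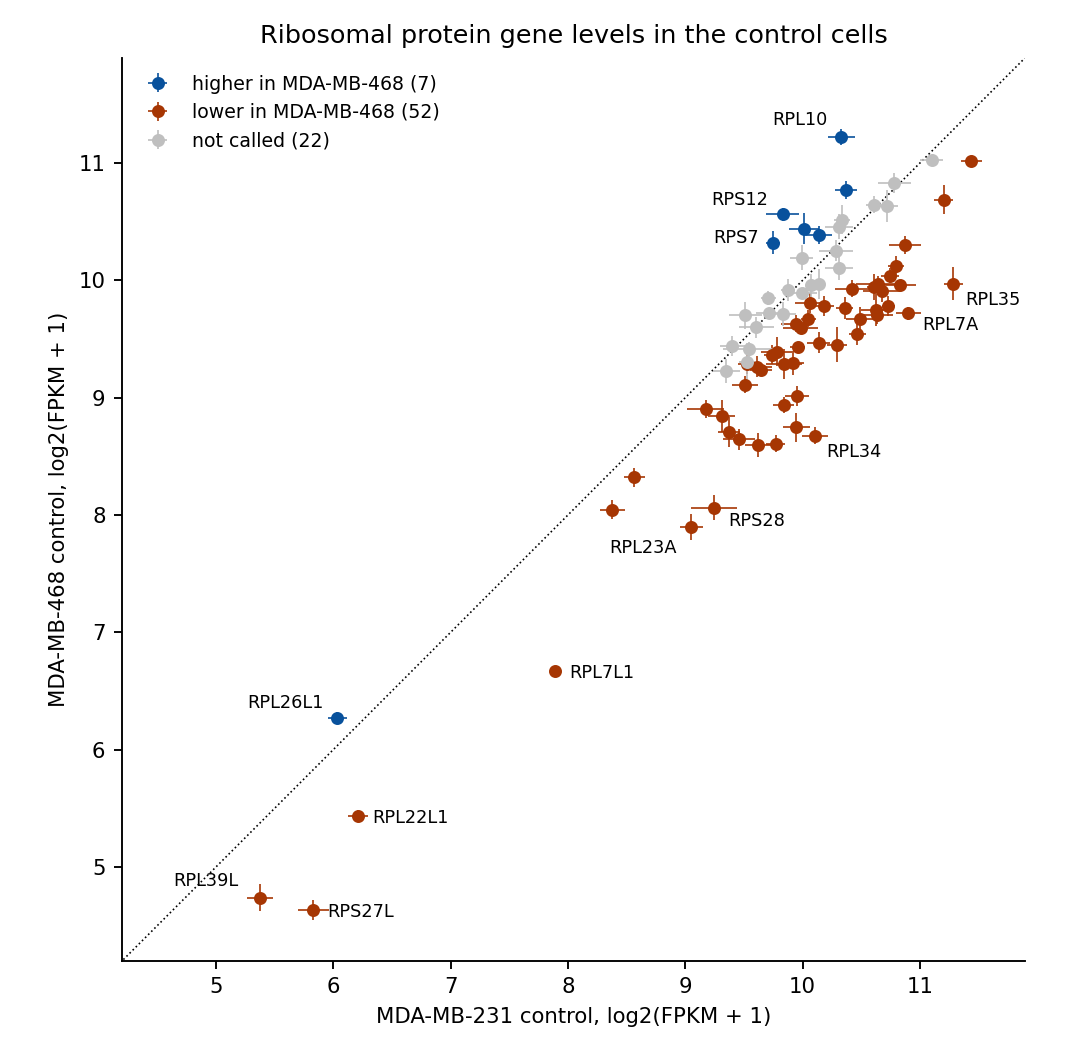
Mean log2(FPKM + 1) of each member in MDA-MB-231 controls (x axis) and MDA-MB-468 controls (y axis), with bars of 1 SD (n = 3) and the line of equal levels. Colours mark the 7 members called higher and the 52 called lower in MDA-MB-468 cells, and RPL10 and RPL34 are the members farthest from the line on either side.

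The paralogs were set against their parent genes, which encode related proteins, as the ratio of their FPKM in each sample. RPL22L1 stood at 15.7% to 16.6% of RPL22 in MDA-MB-468 controls and 15.7% to 18.7% in KO samples. In MDA-MB-231 cells it stood at 20.8%, 21.8% and 23.6% in controls and 14.98%, 17.7% and 17.9% in KO samples, below all controls. RPL22 itself had a log2 fold change of 0.07 in the MDA-MB-468 line and of 0.00 in the other, neither past the threshold (limma adjusted p of 0.495 and 0.992). RPL39L, expressed most in testis, was 5.20% ± 0.193 of RPL39 in MDA-MB-231 controls and 4.41% ± 0.352 in KO samples (SD, n = 3), without overlap, and 3.31% ± 0.178 and 3.47% ± 0.0965 in MDA-MB-468 cells.

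RPL7L1, a more distant relative of RPL7 known as a ribosome assembly factor and not a near copy, was 16.2% of RPL7 in the MDA-MB-468 controls and 32.1% in those of MDA-MB-231, and RPS27L, a target of p53, 1.14% and 2.55% of RPS27. RPL26L1 went the other way, with 8.69% of RPL26 in the MDA-MB-468 controls and 3.80% in those of MDA-MB-231. In all 5 pairs the control ratios of the lines did not overlap. The 5 pairs gave 20 two-sided exact permutation tests on the log2 ratio, and with 3 samples against 3 the smallest p is 0.1, so that the comparisons of 2 groups cannot pass. For the difference of the KO change between the lines, KO and control labels were regrouped within each line, over 400 regroupings. The exact permutation p was 0.035 for RPL22L1 and 0.010 for RPL39L, with Benjamini-Hochberg adjusted values of 0.222 and 0.200. This test thus sets the difference against no KO change in either line, and not against an equal change in both. The adjustment ran over all 20 tests, most of which cannot fall below 0.1, so that 1 pair alone could not pass it. No conclusion is drawn from the adjusted values.

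**Figure D5:**
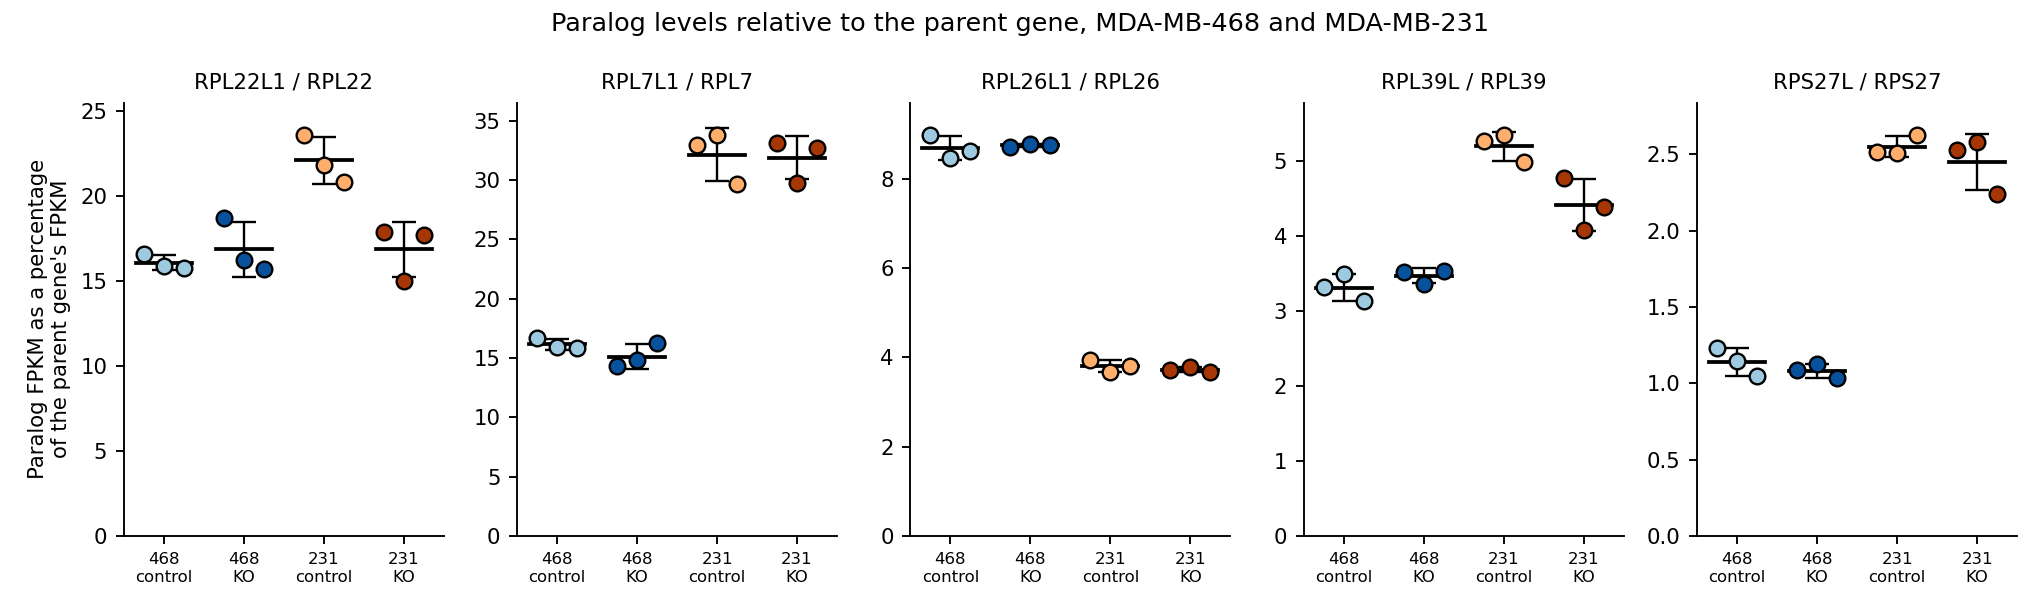
FPKM of each paralog as a percentage of its parent gene's FPKM (y axis, from 0) in the 12 samples, with the mean and SD of each group of 3. RPL22L1 was 14.98% to 17.9% of RPL22 in MDA-MB-231 KO samples against 20.8% to 23.6% in the controls, and RPL26L1 was the pair with the higher ratio in MDA-MB-468 cells.

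Ribosomal proteins whose symbols fall outside the rule were read beside the members. FAU, whose product is cleaved to release the small subunit protein eS30, had a log2 fold change of 0.22 in the MDA-MB-468 line and of 0.01 in the other (limma adjusted p of 0.070 and 0.966). GNB2L1, the scaffold protein RACK1 of the small subunit, had 0.18 and -0.06 (limma adjusted p of 0.122 and 0.489). RPL36AL, a copy of RPL36A, had 0.01 and -0.19 (limma adjusted p of 0.956 and 0.158), against 0.23 and 0.02 for RPL36A. None of these passed in either line.

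Other messages known for a TOP tract were listed as translation factors and small nucleolar RNA host genes, 29 of 30 in the table. In MDA-MB-468 cells 1 rose (3.45%, against 2.21% of all genes) and 0 fell, with 26 above 0 and a median of 0.11. The one that rose was GAS5, a host gene of small nucleolar RNAs (0.39, limma adjusted p of 0.036). In MDA-MB-231 cells 0 rose and 2 fell, EIF4A2, a helicase of translation initiation (-0.23, limma adjusted p of 0.046), and HNRNPA1, a splicing regulator (-0.18, limma adjusted p of 0.045), with 23 below 0 and a median of -0.08. These 2 are 6.90% of the list, against 5.48% of all genes called lower, so that neither count differs much from the background. The difference between the lines passed for 3 (10.3%, against 7.91% of all genes), GAS5, SNHG5 and EEF1B2, at 0.54, 0.58 and 0.41.

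Of 55 ribosome biogenesis genes measured, 0 were called in MDA-MB-468 cells, against 2.21% of all genes called higher and 1.54% lower. At an unadjusted p under 0.05 limma gave 11 higher and 2 lower there. Of all 11529 genes, 14.1% were higher and 1268 genes lower at that threshold. In MDA-MB-231 cells 3 fell: DDX10, a helicase of the small subunit precursor (-0.79), SBDS, which frees EIF6 from the large subunit (-0.40), and NOP56, of the methylation guide complex (-0.29), with limma adjusted p-values of 0.008, 0.014 and 0.044. These 3 are 5.45% of the list, a share that does not exceed the 5.48% of all genes called lower. The medians were 0.11 and -0.17, and the difference between the lines passed for 10 genes (18.2%, against 7.91% of all genes), all higher. For the 75 mitochondrial ribosomal protein genes, 3 (4.00%, against 2.21% of all genes) rose and 0 fell in the MDA-MB-468 line, and 1 rose (1.33%, against 5.34%) and 7 fell (9.33%, against 5.48%) in the MDA-MB-231 line, with medians of 0.10 and -0.14. Their difference between the lines passed for 17 (22.7%, against 7.91% of all genes) and had a median of 0.24.

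Among 20 measured genes that control ribosomal protein synthesis, 1 of 20 fell in each line and 0 rose, where 1.54% of all genes were called lower in the MDA-MB-468 line and 5.48% in the other. EIF4EBP2, an inhibitor of cap-dependent initiation that mTOR phosphorylates, fell by 0.36 in MDA-MB-468 cells (limma adjusted p of 0.021) and had a value of -0.01 in MDA-MB-231 cells (limma adjusted p of 0.924). GABPB1, a subunit of an ETS factor that binds the letters searched above, fell by 0.30 in MDA-MB-231 cells (limma adjusted p of 0.018) and had a value of 0.18 in MDA-MB-468 cells (limma adjusted p of 0.187). The difference between the lines passed as higher in MDA-MB-468 cells for 2 of 20, GABPB1 (0.48, limma adjusted p of 0.0076) and EIF4EBP1 (0.45, limma adjusted p of 0.021). EIF4EBP1 is an inhibitor of the same family as EIF4EBP2. It passed as lower for 1 of 20, EIF4EBP2 (-0.35, limma adjusted p of 0.015). Of all genes 7.91% passed as higher and 6.83% as lower, so that neither count differs much from the background. The list's medians were 0.02 and 0.01.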

How the data were processed

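RNA of 12 samples, 3 in each of 4 groups, was sequenced after TruSeq stranded mRNA preparation. Reads were trimmed (Trimmomatic), aligned to hg19 (STAR) and quantified as FPKM (RSEM) by the authors, who dropped genes whose mean or SD of FPKM was under 1 and deposited log2(FPKM + 1) values. In the deposited values the lowest mean was 1.07 FPKM and the lowest SD 1.00. This filter uses the spread over all samples, and FPKM is relative to each library's total, so that a share that moves in 1 set of genes moves the others. Depth is unknown, and no interval that needs counts was computed.

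limma 3.58.1 in R 4.3.3 (lmFit, eBayes without trend) was fitted to all 11529 genes, each cell line alone, the 6 controls alone, or the 12 samples in 4 groups for the difference. P-values were Benjamini-Hochberg adjusted over all genes, and a call is an adjusted p under 0.05. The fit was tested on simulated data. Unadjusted p-values are named as such. Among the 15 members without an entry among the promoters were RPL37, RPL23, RPS20, RPL30, RPL39L, RPL7, RPL8, RPS15A, RPS2, RPL23A and RPL5. Some genes that the rules below name are not reported here singly, but are in all counts and medians. Gene positions come from GENCODE release 44 mapped to GRCh37, with all 81 members matched. Named were, per comparison, up to 10 called members each way without overlap (the 10 largest each way for the difference), or the 5 highest and 5 lowest where under 5 were called, with the 5 highest and lowest levels, the paralogs, the stalk proteins, RPSA and called genes of the lists. The members and lists were chosen with earlier results of these data known. The replicate numbers used as a block are those of the titles. In MDA-MB-468 cells deviations from the group means over all genes correlated at 0.254, 0.161 and 0.119 between same-numbered control and KO samples. Over the members alone they correlated at 0.201, 0.023 and 0.121, and at 0.22 between control 2 and KO 3. The main fits used no block, and the replicate number was a block only among the alternatives. Alternatives were other scalings, a pseudocount of 0.1, a mean log2 value over 2, an intensity trend, blocks, a length and GC correction, and leaving out samples. Python 3.11.15 and matplotlib 3.10.9 were used.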

Additional observations from a re-analysis of the deposited data

Results flagged for a closer look

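For 23 members the KO change differed between the cell lines by a test of the difference itself (limma, Benjamini-Hochberg adjusted p under 0.05), each with a higher value in MDA-MB-468 cells. The differences on the log2 scale were 0.52 for RPL22L1, 0.46 for RPS7, 0.45 for RPS26, 0.45 for RPS9, 0.44 for RPL18, 0.44 for RPL28, 0.42 for RPS19, 0.42 for RPS15, 0.41 for RPL13, 0.41 for RPL36 and 0.41 for RPS13. They were 0.40 for RPL35, 0.40 for RPS16, 0.40 for RPS3, 0.39 for RPL37A, 0.39 for RPL24, 0.37 for RPL14, 0.37 for RPL26L1, 0.36 for RPL12, 0.35 for RPL6, 0.35 for RPS27A, 0.33 for RPL26 and 0.32 for RPL17. With MDA-MB-468 control 1 and MDA-MB-231 control 3 left out, 0 of the 81 members passed. These controls were chosen by the members' own deviation, which enlarges the difference, so that a smaller difference followed from the choice.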

How the results depend on the processing

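In MDA-MB-468 cells the 1 called member became 0 under quantile normalization, an intensity trend, the replicate block, the p number as a block, centring on the members' mean, an absolute log2 fold change over 0.5, an adjusted p under 0.01, without the 2 controls that stood apart (a setting chosen after seeing the data, as was the centring) and without each of the 6 samples in turn (range 0 to 0), and 5 in 1 fit of all 12 samples. Over all genes the 432 called became 443 (quantile), 466 (trend), 285 (replicate block), 0 (p number), 1385 (centring) and 1241 (1 fit of all 12 samples). Without 1 sample this total was 0 (control 2 or KO 2), 5 (KO 3), 12 (control 3), 27 (control 1) and 725 (KO 1). In MDA-MB-231 cells the 2 called became 1 after scaling to the same 75th percentile, scaling to the FPKM sum of the other genes and a pseudocount of 0.1. With the length and GC correction 1 member was called and it was neither of the 2. They became 0 under quantile normalization, the replicate block, centring, the fold and the adjusted p of 0.01, and without the 2 controls, and 0 to 1 when a sample was left out. Over all genes the 1248 called became 1200 (quantile), 0 (replicate block), 1429 (centring), 403 (without the 2 controls) and 103 to 481 with a sample left out. The replicate numbers of MDA-MB-231 samples did not pair (correlations of -0.054, 0.074 and -0.115).

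For the difference between the lines, the 23 called became 10 (75th percentile), 3 (quantile), 15 (pseudocount 0.1), 35 (trend), 12 (replicate block), 0 (centring), 0 (without the 2 controls), 1 (fold over 0.5), 0 (adjusted p under 0.01) and 3 to 20 with a sample left out. It was 4 without MDA-MB-468 control 1, MDA-MB-231 control 3 or MDA-MB-231 KO 2, 3 without MDA-MB-468 KO 2, 5 without MDA-MB-231 KO 1, 8 without MDA-MB-468 control 2, 12 without MDA-MB-231 control 1, 13 without MDA-MB-468 KO 1 and 15 without MDA-MB-468 KO 3. Over all genes the 1699 called became 1612 (75th percentile), 1522 (quantile), 1474 (pseudocount 0.1), 1777 (trend) and 1463 (replicate block). They were 3333 (centring), 785 (without the 2 controls) and 924 to 1897 with a sample left out. The 59 called between the controls became 38 with the fold, and 55 to 58 with a sample left out.

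The median of the members was 0.088 (quantile) and -0.0018 (centring, reversed) in MDA-MB-468 cells and 0.13 to 0.21 with a sample left out. In MDA-MB-231 cells it was -0.043 (quantile), -0.017 (centring), -0.076 (length and GC, against -0.13 on the same genes uncorrected) and -0.15 to -0.07 with a sample left out. Between the controls it was -0.31 (quantile), 0.017 (centring, reversed), -0.31 (without the 2 controls) and -0.44 to -0.35. For the difference it was 0.16 (quantile), 0.014 (centring), 0.24 (length and GC), 0.21 (without the 2 controls) and 0.25 to 0.34. Centring on the members removes their common change by construction, and the cause of the other changes was not tested. The direction of the share was kept in all alternatives run. The number of samples and an unknown depth limit what changes of this size can show.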
